A study of Mus musculus with 8 samples.

Results

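The genes described here encode the muscle acetylcholine receptor and the proteins that gather it and clear its transmitter at the neuromuscular junction, the synapse between a motor nerve and a muscle fibre. They are 10 genes of the 24033 in the deposited table, taken by symbol: Chrna1, Chrnb1, Chrnd, Chrne, Chrng, Musk, Rapsn, Dok7, Lrp4 and Ache. RNA was sequenced from the soleus, a slow hindlimb muscle, of mice aged 2 months. The 4 K15-SKO mice carried 1 Myogenin-Cre allele with both Klf15 alleles floxed (Myogenin-Cre/+;K15F/F), and the 4 MyoCre controls carried the same Cre allele alone (Myogenin-Cre/+). Cre was thus present in both groups, under the control of myogenin, a gene of the muscle lineage, so nerve, Schwann and vessel cells of the sample are not expected to lose Klf15. KLF15 is a zinc finger transcription factor known for its control of amino acid and lipid metabolism in muscle.

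The muscle receptor is a ring of subunits around an ion channel. The alpha subunit occurs as a pair and holds most of each acetylcholine binding site, and the ring is completed by beta, delta and either epsilon, in adult muscle, or gamma, in fetal and denervated muscle. The nerve releases agrin, which binds the muscle protein LRP4. LRP4 then activates the receptor tyrosine kinase MuSK, the adaptor DOK7 is needed for that activation, and rapsyn anchors the receptors in dense clusters. Most of these genes are transcribed mainly by the few nuclei that lie under the synapse, so in RNA of a whole muscle their level depends both on how many such nuclei there are and on how much RNA each makes, and the samples cannot tell these apart.

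The alternative subunits epsilon and gamma mark the adult and the fetal receptor, and the alpha subunit is common to both. The stretches before their RefSeq start sites (GRCm38.p6, 250 bases each, 5′ to 3′ on the strand of the gene) are shown because epsilon was read in every library and gamma was near 0. Capitals mark E-boxes (CANNTG, the letters bound by myogenic factors such as myogenin) and N-boxes (CCGGAA or its reverse complement TTCCGG, letters known from synapse genes). The Chrne window is chr11:70619195-70619444 on the minus strand, the Chrng window chr1:87205561-87205810 on the plus strand, and the Chrna1 window chr2:73580339-73580588 on the minus strand.
Chrne: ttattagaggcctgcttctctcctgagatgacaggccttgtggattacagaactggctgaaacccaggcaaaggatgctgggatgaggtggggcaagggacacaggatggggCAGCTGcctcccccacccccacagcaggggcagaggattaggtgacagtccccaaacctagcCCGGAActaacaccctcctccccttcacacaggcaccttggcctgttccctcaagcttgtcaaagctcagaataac
Chrng: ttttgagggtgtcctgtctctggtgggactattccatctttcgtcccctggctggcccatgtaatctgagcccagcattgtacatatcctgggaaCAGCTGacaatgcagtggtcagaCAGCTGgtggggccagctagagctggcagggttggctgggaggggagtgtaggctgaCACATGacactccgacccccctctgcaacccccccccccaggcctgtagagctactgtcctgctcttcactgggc
Chrna1: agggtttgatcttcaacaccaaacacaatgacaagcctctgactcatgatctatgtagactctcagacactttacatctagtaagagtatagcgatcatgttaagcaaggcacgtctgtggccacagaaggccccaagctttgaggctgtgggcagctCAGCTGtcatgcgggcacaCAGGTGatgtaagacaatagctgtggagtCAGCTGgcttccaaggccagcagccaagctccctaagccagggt

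The Chrne window held 1 N-box, which begins 76 bases before the start site, and 1 E-box, which begins 138 bases before it. The Chrng window held 3 E-boxes, which begin 75 to 155 bases before the RefSeq start site. The Chrna1 window held 3, which begin 44 to 92 bases before its start site, with 0 N-boxes in both. GENCODE places the start of Chrng at base 87204657 of chromosome 1, so the Chrng window lies inside the gene by that annotation. Windows were matched for 7 of the 10 genes, with 2 start sites for Dok7, and the N-box of Chrne was the only one in these 8 windows. By GENCODE the Ache window and 1 of the 2 Dok7 windows also lie inside their genes. The windows of Chrne, Chrnb1 and Musk run into theirs. Of 32851 mouse windows of the same length, 66.2% held an E-box and 12.0% an N-box on either strand. The motifs did not overlap each other. A match is a description of letters and does not show binding.

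The labels were first checked with the deleted gene. Klf15 had 15.7, 19.3, 16.7 and 13.1 FPKM (fragments per kilobase of transcript, scaled to the depth of the library) in K15-SKO and 44.5, 49.8, 49.1 and 22.8 FPKM in MyoCre libraries, with no overlap (log2 fold change -1.28, SE 0.25, limma adjusted p = 0.0315). That call was kept in 7 of 18 alternative fits. It was lost without K15-SKO replicate 1, 3 or 4 (limma adjusted p = 0.0939, 0.152 and 0.0534) and without MyoCre replicate 1, 2 or 3 (0.123, 0.0855 and 0.199). With all 8 libraries kept it was also lost under median-of-ratios and upper-quartile scaling (limma adjusted p = 0.0868 and 0.0786). The same held with no filter (0.129), without robust variance estimation (0.0879) and without genes listed at 0 in a whole genotype (0.0943). The difference stayed negative in all 18. Fibre markers were abundant in both groups: Ckm, the muscle creatine kinase, had 2089 to 4244 FPKM in K15-SKO and 2032 to 4169 FPKM in MyoCre muscle, and Myh7, the slow myosin, had 786.1 to 2082 FPKM in K15-SKO and 669.2 to 2280 FPKM in MyoCre muscle. The depth estimated from the lowest values was 7250000 to 13300000 fragments in K15-SKO and 8040000 to 22600000 fragments in MyoCre libraries. On the first principal component (25.2% of the variance) K15-SKO libraries lay between -60.8 and -11.2 and MyoCre libraries between 21.0 and 34.6. K15-SKO replicate 3 stood at one end, at -60.8, and the next library was at -18.6. MyoCre replicate 2 was the deepest library and the only one with Y-linked expression. Xist, an RNA of female cells, had 0.0103 FPKM there and 21.0 to 50.3 FPKM in the other 7 libraries. By these genes it was the only male, and the part of sex in the values was not tested.

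No synapse gene differed between K15-SKO and MyoCre muscle by enough to pass the test. Of the 10 genes 9 had a mean of at least 1 FPKM and were tested, and 0 of the 9 passed adjusted p 0.05, where 0.550% of the 12535 genes tested did (0.367% higher and 0.183% lower in K15-SKO). At unadjusted p under 0.05 there was 1, Chrnd, where 4.33% of all tested genes lay. Their log2 fold changes (K15-SKO over MyoCre, on the scale of log2(FPKM + 0.5)) ran from -0.07 for Musk to 0.49 for Chrnd, with a median of 0.07, and 6 of 9 were positive. The median of all tested genes was -0.12, and all 9 lay above it with the libraries as deposited. Without K15-SKO replicate 3 the median of all tested genes was -0.0354, and Dok7, at -0.15, lay below it. In the alternative fits Musk, Rapsn and Dok7 each lay above the median of all genes in the same fit in 15 of 18.

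**Figure D1:**
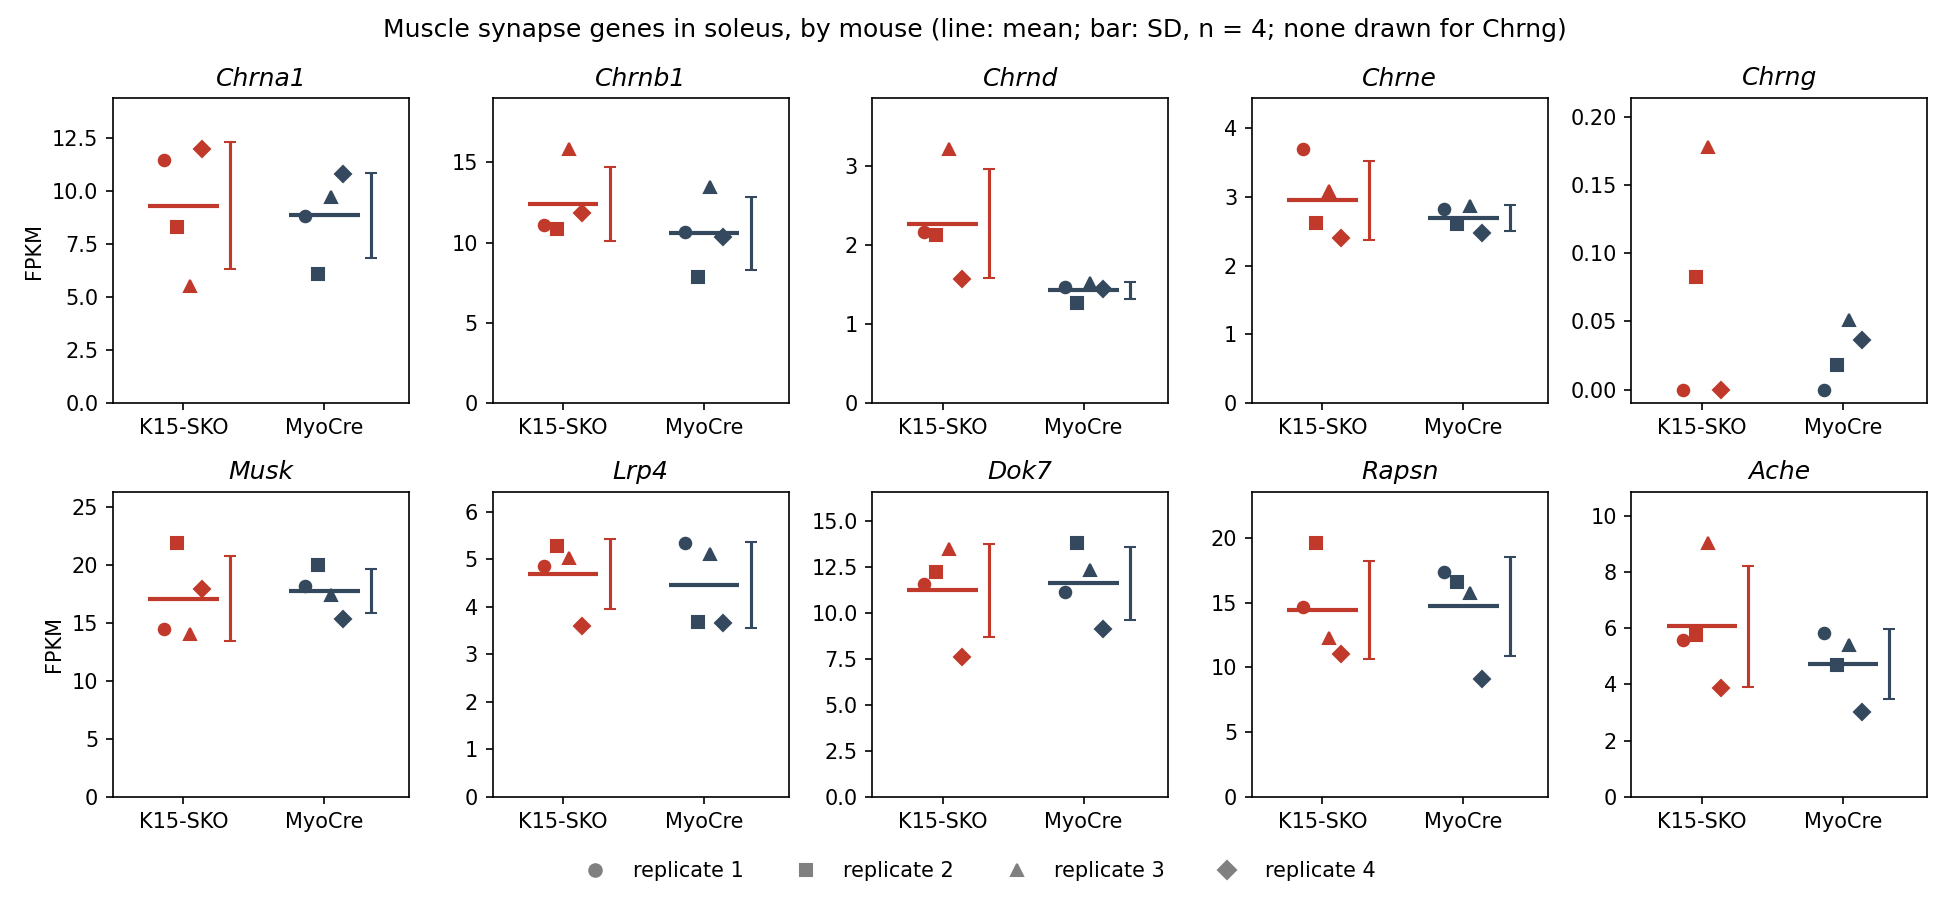
FPKM (vertical axes, which differ between panels) of the 10 synapse genes in each K15-SKO and MyoCre library; symbols give the replicate number, lines the mean and bars the SD over 4 mice, neither drawn for Chrng. Of the 10 panels, that of Chrnd alone shows libraries of the genotypes that do not overlap, with 1.57 to 3.21 FPKM in K15-SKO and 1.27 to 1.52 FPKM in MyoCre muscle.

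Among the 10 genes Musk had the highest median level per length over the 8 libraries, 17.7 FPKM, followed by Rapsn with 15.2, Dok7 with 11.9, Chrnb1 with 11.0 and Chrna1 with 9.28 FPKM. Ache had a median of 5.49, Lrp4 of 4.95, Chrne of 2.72, Chrnd of 1.54 and Chrng of 0.0272 FPKM. Neighbours in this order overlapped in their ranges over the libraries, except Chrnd and Chrng. Dok7 was above Chrnb1 in 4 of 8 libraries and Chrnb1 above Chrna1 in 5 of 8, so the order of these 3 genes is not settled by their spread. Lrp4 was above Chrne in 8 of 8 libraries although the ranges of the 2 genes touch.

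Chrna1 encodes the alpha subunit (ENSMUSG00000027107.3, chromosome 2, 73563215 to 73580338, minus strand, mm10). It had 11.5, 8.29, 5.53 and 12.0 FPKM in K15-SKO libraries, against 8.84, 6.10, 9.73 and 10.8 FPKM in MyoCre libraries. The lowest value of all belonged to K15-SKO replicate 3 and the highest to K15-SKO replicate 4, so the K15-SKO values enclosed those of the controls. Means were 9.32 ± 3.0 FPKM in K15-SKO and 8.87 ± 2.01 FPKM in MyoCre muscle (SD, n = 4 each), with a log2 fold change of 0.04 (95% interval -0.50 to 0.58, limma adjusted p = 0.989). The sign turned when K15-SKO replicate 1 or 4 or MyoCre replicate 2 was left out.

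Chrnb1 encodes the beta subunit (ENSMUSG00000041189.9, chromosome 11, 69784036 to 69795943, minus strand). It had 11.1, 10.9, 15.8 and 11.9 FPKM in K15-SKO libraries, against 10.7, 7.88, 13.4 and 10.4 FPKM in MyoCre libraries. The highest value was in K15-SKO replicate 3, the library that was lowest for Chrna1, and the genotypes overlapped. Means were 12.4 ± 2.32 FPKM in K15-SKO and 10.6 ± 2.28 FPKM in MyoCre muscle, with a log2 fold change of 0.23 (95% interval -0.20 to 0.66, limma adjusted p = 0.957). It was 0.11 without K15-SKO replicate 3 and 0.10 without MyoCre replicate 2.

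Chrnd encodes the delta subunit (ENSMUSG00000026251.13, chromosome 1, 87190607 to 87200070, plus strand) and had the largest log2 fold change of the 9 tested genes. It had 2.16, 2.13, 3.21 and 1.57 FPKM in K15-SKO libraries, against 1.47, 1.27, 1.52 and 1.44 FPKM in MyoCre libraries. Every K15-SKO value lay above every MyoCre value, but the gap between K15-SKO replicate 4 and MyoCre replicate 3 was small. Means were 2.27 ± 0.69 FPKM in K15-SKO and 1.42 ± 0.11 FPKM in MyoCre muscle, so the K15-SKO mean was 159% of the MyoCre mean. The log2 fold change was 0.49 (SE 0.20, 95% interval 0.06 to 0.92, unadjusted p = 0.0282), and limma's p adjusted over all genes was 0.940. A gap between the genotypes without overlap occurred in 1 of the 9 tested synapse genes, against 3.35% of all tested genes in either direction and 0.630% in the upward one. The fold change stayed positive in 17 of 17 alternative fits, from 0.34 without K15-SKO replicate 3 to 0.62 without K15-SKO replicate 4, and the adjusted p ranged from 0.178 with library weights to 1.000. The level is low: with the estimated depths it rests on roughly 33 to 130 fragments per library.

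Chrne encodes the adult epsilon subunit (ENSMUSG00000014609.16, chromosome 11, 70614883 to 70619216, minus strand). It had 3.70, 2.62, 3.09 and 2.41 FPKM in K15-SKO libraries, against 2.82, 2.61, 2.87 and 2.47 FPKM in MyoCre libraries. The control values lay inside the range of the K15-SKO values. Means were 2.96 ± 0.57 FPKM in K15-SKO and 2.69 ± 0.19 FPKM in MyoCre muscle, with a log2 fold change of 0.10 (95% interval -0.28 to 0.48, limma adjusted p = 0.957). It was 0.0023 without K15-SKO replicate 1. The gene overlaps 4930544D05Rik on the other strand, and without a stated strand setting reads of the 2 genes cannot be told apart.

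Chrng encodes the fetal gamma subunit, which returns in denervated muscle, and lies 4586 bases behind Chrnd on the same strand (ENSMUSG00000026253.14, 87204657 to 87212694). It was listed at 0, 0.0823, 0.178 and 0 FPKM in K15-SKO libraries, against 0, 0.0179, 0.0512 and 0.0366 FPKM in MyoCre libraries. It was at 0 in 3 of 8 libraries and the genotypes overlapped. At most about 6.6 fragments stood behind a value, so it was too low to be tested with the other genes. With no filter on low values its adjusted p in limma was 0.921 (log2 fold change 0.09). As a share of epsilon and gamma FPKM together, gamma made up 0% to 5.46% in K15-SKO and 0% to 1.75% in MyoCre libraries, so the adult subunit prevailed in all 8. The highest share was in K15-SKO replicate 3.

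The proportions between subunits were compared within each library. Chrnb1 was 0.97, 1.31, 2.86 and 0.99 times the level of Chrna1 per length in K15-SKO replicates 1 to 4, against 1.21, 1.29, 1.38 and 0.96 times in MyoCre replicates 1 to 4. Chrnd was 0.13 to 0.58 times Chrna1 in K15-SKO and 0.13 to 0.21 times in MyoCre libraries, and the 0.58 was again K15-SKO replicate 3; without it the highest K15-SKO ratios were 1.31 and 0.26. Chrnd was 0.58 to 1.04 times Chrne in K15-SKO and 0.49 to 0.58 times in MyoCre libraries, so the ranges touched; without K15-SKO replicate 3 the highest K15-SKO value was 0.81. The sum over the 5 subunits was 24.0 to 28.4 FPKM in K15-SKO and 17.9 to 27.6 FPKM in MyoCre libraries, with the lowest sum in MyoCre replicate 2.

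**Figure D2:**
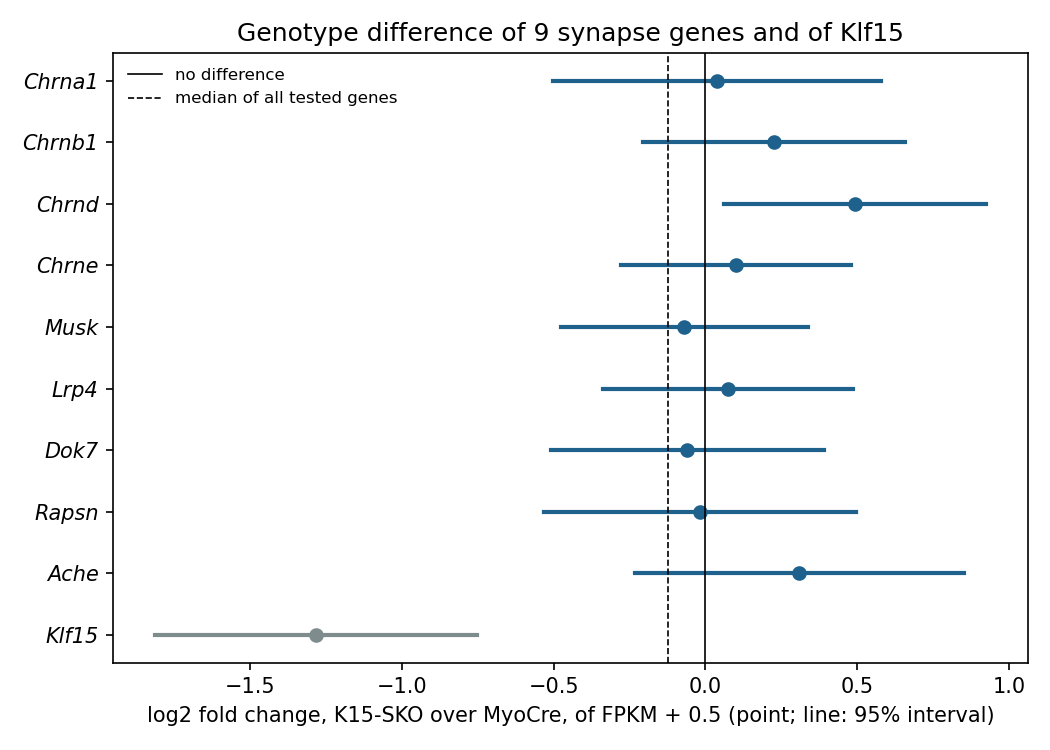
Log2 fold change of FPKM + 0.5, K15-SKO over MyoCre (horizontal axis), for the 9 tested synapse genes and for Klf15; points are estimates, lines 95% intervals from limma without adjustment for the number of genes, the solid vertical line is 0 and the dashed one the median of all tested genes, -0.12. The interval of Chrnd, 0.06 to 0.92, is the only one of the 9 synapse genes that leaves out 0.

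The receptor for agrin and its kinase came next. Lrp4 (ENSMUSG00000027253.15, chromosome 2, 91457511 to 91513779, plus strand) had 4.85, 5.27, 5.04 and 3.60 FPKM in K15-SKO libraries, against 5.35, 3.69, 5.11 and 3.66 FPKM in MyoCre libraries. The genotypes overlapped over nearly their whole range. Means were 4.69 ± 0.75 FPKM in K15-SKO and 4.45 ± 0.91 FPKM in MyoCre muscle, with a log2 fold change of 0.07 (95% interval -0.34 to 0.49, limma adjusted p = 0.964). The sign turned without MyoCre replicate 2 or 4, with values near 0. Musk (ENSMUSG00000057280.15, chromosome 4, 58285960 to 58374303, plus strand) had 14.5, 22.0, 14.1 and 18.0 FPKM in K15-SKO libraries, against 18.2, 20.0, 17.5 and 15.4 FPKM in MyoCre libraries. K15-SKO held both the lowest and the highest value. Means were 17.1 ± 3.67 FPKM in K15-SKO and 17.8 ± 1.93 FPKM in MyoCre muscle, with a log2 fold change of -0.07 (95% interval -0.48 to 0.34, limma adjusted p = 0.964).

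Dok7, the adaptor of MuSK (ENSMUSG00000044716.12, chromosome 5, 35056766 to 35087839, plus strand), had 11.6, 12.2, 13.5 and 7.60 FPKM in K15-SKO libraries, against 11.1, 13.8, 12.3 and 9.10 FPKM in MyoCre libraries. The library numbered 4 was the lowest of each genotype, and the other 6 libraries lay close together. Means were 11.2 ± 2.53 FPKM in K15-SKO and 11.6 ± 1.99 FPKM in MyoCre muscle, with a log2 fold change of -0.06 (95% interval -0.51 to 0.39, limma adjusted p = 0.975). Rapsn, which encodes the anchoring protein rapsyn (ENSMUSG00000002104.11, chromosome 2, 91035620 to 91045729, plus strand), had 14.7, 19.6, 12.3 and 11.1 FPKM in K15-SKO libraries, against 17.3, 16.6, 15.7 and 9.10 FPKM in MyoCre libraries. The lowest value was that of MyoCre replicate 4 and the highest that of K15-SKO replicate 2. Means were 14.4 ± 3.78 FPKM in K15-SKO and 14.7 ± 3.79 FPKM in MyoCre muscle, with a log2 fold change of -0.02 (95% interval -0.53 to 0.50, limma adjusted p = 0.992). Under median-of-ratios and upper-quartile scaling the estimates of Musk, Dok7 and Rapsn were above 0, as the median of all tested genes moved up to 0.0016 and -0.01, against -0.12 as deposited. Rapsn overlaps the antisense transcript Gm13778, which had 0 to 1.30 FPKM.

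Ache encodes acetylcholinesterase, the enzyme that breaks down the transmitter in the synaptic cleft (ENSMUSG00000023328.14, chromosome 5, 137287519 to 137294466, plus strand). It had 5.60, 5.76, 9.04 and 3.89 FPKM in K15-SKO libraries, against 5.83, 4.68, 5.38 and 3.01 FPKM in MyoCre libraries. One K15-SKO value, that of replicate 3, stood above all the others, and the remaining 7 overlapped. Means were 6.07 ± 2.15 FPKM in K15-SKO and 4.73 ± 1.24 FPKM in MyoCre muscle, with a log2 fold change of 0.31 (95% interval -0.23 to 0.85, limma adjusted p = 0.957). The fold change was 0.11 without K15-SKO replicate 3 and 0.13 without MyoCre replicate 4. The antisense transcript Gm42456 overlaps the gene and had 0 to 0.223 FPKM. Relative to the 5 receptor subunits together, Ache was 0.14 to 0.32 times their summed FPKM in K15-SKO and 0.12 to 0.26 times in MyoCre libraries.

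Single libraries stood high or low for several of the genes at once. K15-SKO replicate 3 had the highest value of all 8 libraries for Chrnb1, Chrnd and Ache and the lowest for Chrna1 and Musk. The RNA Rn7sk took 14.1% of the FPKM sum of that library, against 8.67% to 10.5% in the others. Its median-of-ratios scaling factor was 0.796, against 0.953 to 1.15 in the others. The part of these traits in its high and low values was not tested. K15-SKO replicate 4 was the lowest library for Chrne, Dok7 and Lrp4, and MyoCre replicate 4 for Rapsn and Ache. For 5 of the 9 genes (Chrne, Rapsn, Dok7, Lrp4 and Ache) the library numbered 4 was the lowest of its genotype in both genotypes, while for Chrna1 it was the highest in both. The labels do not say what a shared number stands for, and whether it moves with these values for a reason was not tested.

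**Figure D3:**
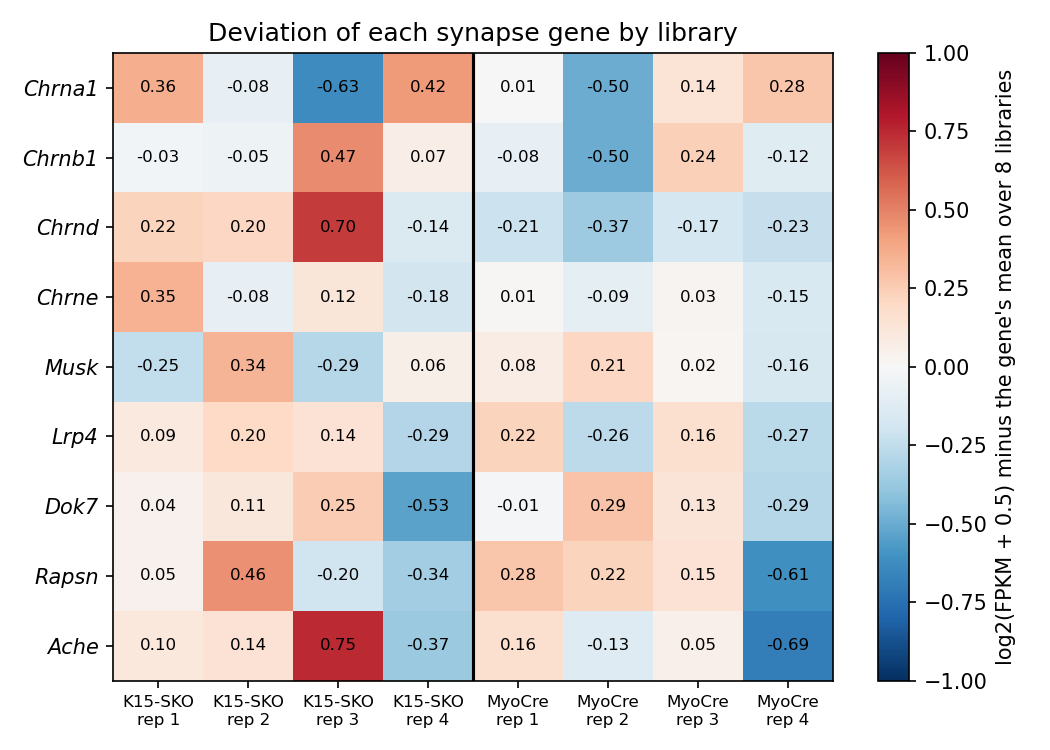
Deviation of log2(FPKM + 0.5) from the mean of each gene over the 8 libraries, for 9 synapse genes (rows) in 4 K15-SKO and 4 MyoCre libraries (columns); red is above and blue below the mean of the gene. K15-SKO replicate 3 reaches 0.75 for Ache and -0.63 for Chrna1, and MyoCre replicate 4 reaches -0.69 for Ache.

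The genes whose pattern over the 8 libraries was most like that of Chrna1 were Ap4e1, Zfp120 and Ppp1cb. Likeness was the root-mean-square difference of log2(FPKM + 0.5) after each gene was set to its own mean, over 12526 tested genes outside the 10, and was 0.0812, 0.103 and 0.104 for these 3. Ppp1cb, a catalytic subunit of protein phosphatase 1, had 107.3, 85.6, 54.5 and 126.7 FPKM in K15-SKO libraries, against 87.3, 74.0, 100.9 and 119.5 FPKM in MyoCre libraries. Chosen for likeness over these same libraries, it shared with Chrna1 the low value in K15-SKO replicate 3 and the high one in K15-SKO replicate 4.

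Other genes with a role at the synapse were also without a call. Of 38 such genes 35 were tested and 0 passed adjusted p 0.05 in either direction, with 2 at unadjusted p under 0.05. Over all tested genes these shares were 0.550% and 4.33%, so the counts are near the background. Their median log2 fold change was -0.07, against -0.12 for all tested genes, and 24 of 35 lay above that value. The lowest p-values belonged to Lama5, a laminin chain of the synaptic basement membrane that other basement membranes also hold, and Agrn. Lama5 had 4.02, 4.60, 5.87 and 3.75 FPKM in K15-SKO libraries, against 2.40, 3.75, 3.27 and 2.02 FPKM in MyoCre libraries (log2 fold change 0.60, limma adjusted p = 0.768). The genotypes touched at 3.75 FPKM, between K15-SKO replicate 4 and MyoCre replicate 2.

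Agrn encodes agrin, the ligand of LRP4, of which muscle and other cells make forms that cluster receptors poorly. It had 4.23, 4.09, 6.71 and 5.22 FPKM in K15-SKO libraries, against 2.91, 3.46, 4.52 and 2.93 FPKM in MyoCre libraries (log2 fold change 0.49, limma adjusted p = 0.957), and the genotypes overlapped. Erbb3, a receptor for neuregulin found in Schwann cells and at the synapse, had 2.05 ± 0.24 FPKM in K15-SKO and 2.97 ± 0.89 FPKM in MyoCre muscle (log2 fold change -0.41, limma adjusted p = 0.957). Ufsp1, a protease gene that begins 162 bases behind Ache on the same strand, had 10.2, 8.61, 9.24 and 8.06 FPKM in K15-SKO libraries, against 7.55, 7.45, 7.72 and 5.75 FPKM in MyoCre libraries. Its genotypes did not overlap, but the adjusted p was 0.957 (limma, log2 fold change 0.33). Such a gap occurred in 1 of the 35 tested genes of this list, against 3.35% of all tested genes in either direction and 0.630% in the upward one. Endothelial markers, whose cells lie on a laminin-rich basement membrane, summed to 105.3 to 130.2 FPKM in K15-SKO and 81.2 to 113.0 FPKM in MyoCre libraries. All 6 of them lay above the median of all genes, with log2 fold changes from -0.10 to 0.43. The sums overlapped, and 0 of the 6 passed adjusted p 0.05, against 0.550% of all tested genes. The part of these markers in the values of Lama5 and Agrn was not tested.

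Genes known to respond when muscle loses its nerve gave no call. Of 17 genes 15 were tested and 0 passed, with 1 at unadjusted p under 0.05, again near the 0.550% and 4.33% of all tested genes. Their median log2 fold change was -0.09. The 1 gene was Myod1, a myogenic factor, with 2.24, 1.55, 1.02 and 1.35 FPKM in K15-SKO libraries, against 1.98, 2.34, 2.34 and 3.17 FPKM in MyoCre libraries (log2 fold change -0.56, limma adjusted p = 0.890). The genotypes overlapped through K15-SKO replicate 1. Myog, the myogenic factor whose control region drives Cre in both groups, had 4.83 ± 1.16 FPKM in K15-SKO and 4.76 ± 1.5 FPKM in MyoCre muscle (log2 fold change 0.04, limma adjusted p = 0.988).

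The neonatal myosin Myh8 had 2.31 ± 1.14 FPKM in K15-SKO and 1.47 ± 0.36 FPKM in MyoCre muscle (log2 fold change 0.45, limma adjusted p = 0.957), with its highest value, 3.91 FPKM, in K15-SKO replicate 3. The transcriptional cofactor Dach2 had 2.37 ± 1.03 FPKM in K15-SKO and 3.06 ± 0.69 FPKM in MyoCre muscle (log2 fold change -0.37, limma adjusted p = 0.957). Mef2c, a transcription factor of muscle genes, had 182.0 ± 49.4 FPKM in K15-SKO and 200.3 ± 7.33 FPKM in MyoCre muscle (log2 fold change -0.19, limma adjusted p = 0.957). Its lowest value, 109.9 FPKM, was also in K15-SKO replicate 3.

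Schwann cells, which cover the nerve ending and wrap its axon, were represented at a low level in both groups. Of 10 markers 5 passed the filter and 0 the test, which 0.550% of all tested genes passed. The log2 fold changes of the 5 ran from -0.31 to -0.06. Their median was -0.22, against -0.12 for all tested genes, and 1 of the 5 lay above that value. The list summed to 16.4 to 23.4 FPKM in K15-SKO and 19.2 to 26.7 FPKM in MyoCre libraries. The defining factor Sox10 had 0.0961 to 0.649 FPKM in K15-SKO and 0.223 to 0.418 FPKM in MyoCre libraries, and the sums of the genotypes overlapped.

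**Figure D4:**
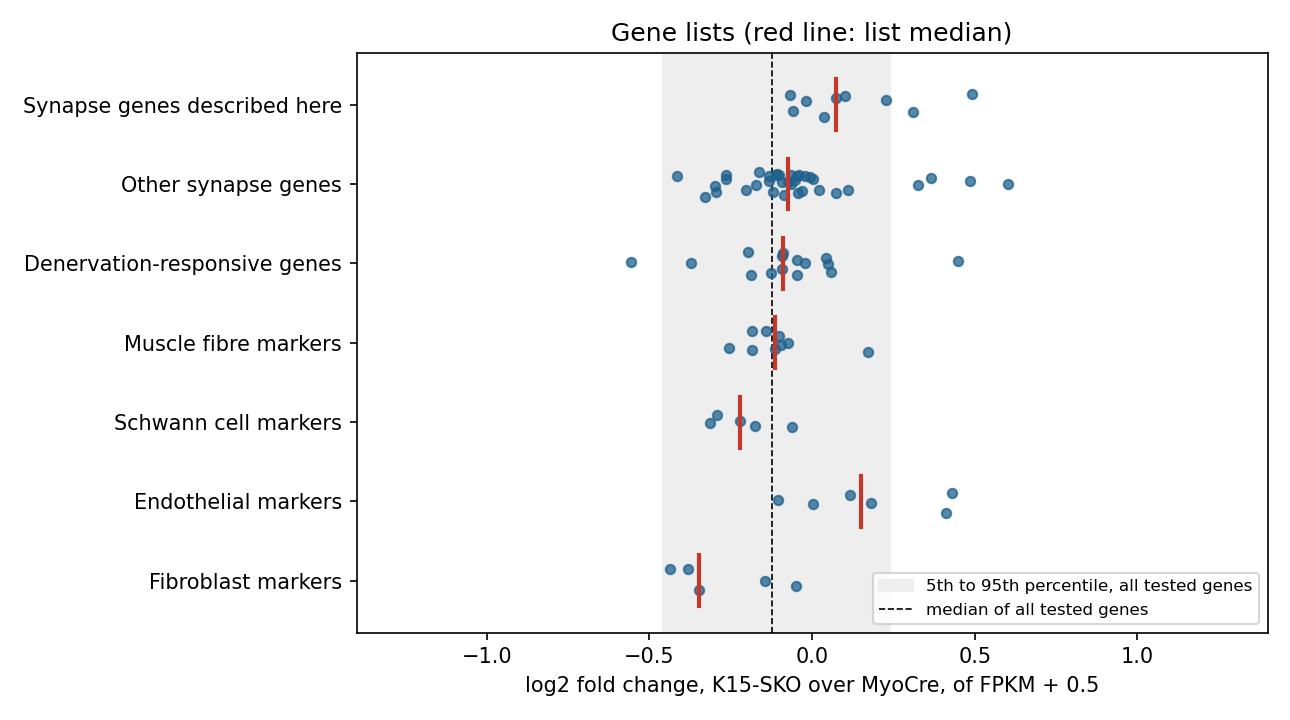
Log2 fold change of FPKM + 0.5, K15-SKO over MyoCre (horizontal axis), of the tested genes of 7 lists (rows, 1 point a gene, red line the median of the list); the grey band runs from the 5th to the 95th percentile of all tested genes, -0.46 to 0.24, and the dashed line is their median. Of the synapse genes described here, Chrnd at 0.49 and Ache at 0.31 lie outside the band and the other 7 inside it.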

How the data were processed

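RNA sequencing of soleus muscle from 4 K15-SKO and 4 MyoCre mice was read from 1 table of 24033 genes. The deposited values are taken to be FPKM, made by the authors with STAR, Cufflinks and Cuffdiff on mm10 per the submitters' processing notes. The unit was inferred, since the header names samples only. The sources used here do not name the annotation, the strand setting or the library scaling. No count model was run, because FPKM are not counts. Depth was estimated from the commonest of the 300 lowest values of FPKM times length in single-transcript genes over 2000 bases, taken as 1 fragment.

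Genes that averaged 1 FPKM or more entered the fit. Their values, as log2(FPKM + 0.5), were fitted in limma 3.58.1 (R 4.3.3) with trend and robust variance, genotype as the only term, two-sided, with Benjamini-Hochberg adjustment over 12535 genes. The model was tested on simulated data. Positions are from GENCODE M21, which held 23896 of the 24033 gene IDs, and promoter sequences from RefSeq (GRCm38.p6). Some zeros may be failed estimates: 159 tested genes were listed at 0 in a whole genotype.

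The synapse genes and gene lists were chosen with earlier results of these data known. All 10 were named, with the 4 smallest p-values of each related list; Myog, Sox10, Ckm, Myh7, Cdh15, Syt2, Chrna2 and Chrna9 were named after their values were seen. Alternatives changed the pseudocount, filter, scaling, variance estimation, library weights, genes listed at 0, replicate block or 1 library at a time.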

Additional observations from a re-analysis of the deposited data

How the results depend on the processing

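In each of the 18 alternative fits 0 of the synapse genes tested passed the threshold; 9 were tested, or 6 with a minimum mean of 5 FPKM and 10 with no filter. Musk, Rapsn and Dok7 were above 0 with median-of-ratios scaling (log2 fold changes 0.0656, 0.115 and 0.0737) and with upper-quartile scaling (0.0529, 0.102 and 0.0613); these move all genes alike, their median being 0.0016 and -0.01, against -0.12. Leaving out 1 library at a time gave -0.12 to 0.25 for Chrna1, -0.19 to 0.0145 for Musk, -0.23 to 0.0924 for Rapsn, -0.17 to 0.11 for Dok7 and -0.0037 to 0.18 for Lrp4; Chrnb1, Chrnd, Chrne and Ache kept their sign, but Chrne ran down to 0.0023, without K15-SKO replicate 1. Over all genes, 46 were higher and 23 lower. The 46, all listed at 0 in MyoCre, became 22 with a minimum mean of 5 FPKM and, by construction, 0 without genes listed at 0, where 12 were lower. The lower genes numbered 15 with median-of-ratios scaling, 15 with upper-quartile scaling, 15 without robust variance estimation and 101 with library weights; the cause was not tested. Without 1 library, 45 to 54 were higher and 8 (MyoCre replicate 3) to 28 lower, with 13 without K15-SKO replicate 1 and 14 without MyoCre replicate 1. The adjusted p of Klf15 was 0.00077 to 0.199 without 1 library and 0.0868 with median-of-ratios scaling. Same-numbered libraries correlated in their deviations at 0.10, 0.23, 0.0022 and 0.28, and differently numbered ones at -0.24 to 0.13. Since 1 same-numbered pair was under 0.1, and K15-SKO replicates 1 and 3 correlated best with another number, the numbers were not taken to pair the libraries. K15-SKO replicate 1 did so by little, 0.104 against 0.102, and MyoCre replicates 1, 2 and 4 correlated best with their own number. With the replicate block 46 genes were higher, 32 lower and 0 of the 9 tested synapse genes passed, Chrnd having a limma adjusted p of 0.693. Depth limits Chrng most, with at most about 6.6 fragments a library.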

Other observations

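Of 11 genes for nicotinic subunits of the neuronal type 7 were analysed here, and 0 reached a mean of 1 FPKM over the 8 libraries. Chrna2 had 0.212, 0.691, 0.816 and 0.533 FPKM in K15-SKO libraries, against 1.25, 0.576, 1.26 and 0.964 FPKM in MyoCre libraries. Chrna9 had 0.597, 0.872, 0.442 and 0.458 FPKM in K15-SKO libraries, against 0.0584, 0.401, 0.246 and 0.471 FPKM in MyoCre libraries. Both overlapped between the genotypes.

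Bche, the second cholinesterase, had 2.04, 2.66, 1.66 and 3.97 FPKM in K15-SKO libraries, against 3.38, 1.93, 4.40 and 5.44 FPKM in MyoCre libraries (log2 fold change -0.46, limma adjusted p = 0.957), so its estimate lay on the other side of 0 from that of Ache. Whether the 2 differ was not tested. Syt2, a synaptic vesicle gene of motor nerve endings whose RNA is made in the spinal cord, averaged 0.0144 FPKM in K15-SKO and 0.0177 FPKM in MyoCre libraries.

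Cdh15, a cadherin of muscle precursor cells, had 6.06, 7.89, 7.63 and 4.32 FPKM in K15-SKO libraries and was listed at 0 in every MyoCre library. It is 1 of the 159 tested genes listed at 0 in a whole genotype, and its control level cannot be read from the table. None of the 10 synapse genes was among those.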
